A study of Mus musculus with 6 samples.

Results

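The genes described here are the secreted Wnt ligands, their Frizzled (Fzd) receptors and Lrp5/6 co-receptors, the secreted inhibitors of the Sfrp and Dkk families, and Axin, in mouse hippocampus after repeated lidocaine. They were found by gene symbol, which gave 39 of the 22050 genes in the deposited table: 19 ligands, 9 Frizzled receptors, 2 co-receptors, 8 secreted inhibitors and Axin2. No row carried the symbol Axin1 or Fzd10, so these genes could not be read. Messenger RNA was sequenced from the hippocampus of young mice, with 3 control libraries and 3 libraries from mice given lidocaine by repeated injection. Lidocaine, an anaesthetic used locally, closes voltage-gated sodium channels. The labels name no strain, sex, exact age, dose or route, and do not say what the controls received. Old mice belong to the study's design and are not analysed here. The columns of the deposited table carry a group initial and a number but no age, and were matched to the young mice's libraries by these. The comparison asks how lidocaine affects hippocampal gene expression.

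Wnt proteins are lipid-modified signals that act over short distances. A Wnt bound to a Frizzled receptor and Lrp5 or Lrp6 stops the Axin-containing destruction complex from degrading β-catenin, which then activates target genes with TCF/LEF factors. Other Wnts signal through Frizzled without β-catenin, to the cytoskeleton and planar cell polarity. In the rodent hippocampus the pathway is known for patterning the embryonic structure, for neurogenesis in the adult dentate gyrus and for building and keeping synapses.

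Estimated counts summed to between 13887604 and 16984995 per library. All 22050 rows carry rat Ensembl identifiers although the labels name the mouse, so genes are named as the table names them. Which reference the reads were assigned to could not be settled. Levels compared between genes and counts of 0 may depend on it, which was not tested. For example, the Wnt pathway genes Daam2 and Bcl9 were counted 0 times in all 6 libraries. Nothing in the labels ties each library to its own animal, so the p-values here speak only to the spread between libraries, which may be technical. Of 12 hippocampal markers used as a check, 11 matched a row and 10 had enough counts to test. The pyramidal cell markers Wfs1, Fibcd1 and Neurod6 and the dentate gyrus marker C1ql2 averaged 112, 50.2, 29.2 and 36.5 FPKM in the controls (fragments scaled to transcript length and to library depth). Prox1, a defining factor of dentate granule cells, was at 0.08 FPKM in the controls and 0.037 with lidocaine, with fractional counts and values of 0 in 3 libraries. The CA1 marker Spink8 was at 0.03 FPKM in the controls and not tested, and the dentate gyrus marker Dsp at 0.503 FPKM.

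None of the 29 members with enough counts to test was called different between lidocaine and control. edgeR's quasi-likelihood test with Benjamini-Hochberg adjustment over all 13408 tested genes called 0 members at an adjusted p under 0.05, against 0.0149% of all tested genes. The smallest adjusted p among members was 0.995. DESeq2 also called 0 members, against 0.172% of all tested genes. With an unadjusted p under 0.05 it listed 3 of the 29 members, against 3.93% of all tested genes. With limma-voom and with limma on FPKM, 0 members were called as well. At an unadjusted p under 0.05, edgeR listed 4 members, Sfrp2, Fzd9, Wnt10a and Sfrp1, which is 13.8% of the 29 against 4.36% of all tested genes. Of the 29 members, 2 were listed as higher, against 2.0% of all tested genes, and 2 as lower, against 2.36%. The count of 4 became 1 without control 3 and 2 without control 2. In 5 members, these 4 and Wnt10b, the lidocaine and control libraries did not overlap, which is 17.2% against 9.98% of all tested genes. The lidocaine libraries were the higher ones in 2 of the 29 members, against 4.89% of all tested genes, and the lower ones in 3 of the 29, against 5.09%. The median log2 fold change was 0.025 over the 29 members and 0.00 over all tested genes, and 19 members (65.5%) had a positive value, against 49.9% of all tested genes, and 10 a negative one.

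The members were read with unequal precision. The standard error of the log2 fold change lay between 0.0593 and 0.28 for the 17 tested members that averaged at least 1 FPKM, and between 0.218 and 0.667 for the 12 below that level. The count was fractional in at least 1 library for 7 members, Fzd3, Dkk3, Wnt2, Lrp6, Fzd8, Wnt9a and Lrp5, as happens when reads are shared between genes, and their values are less certain. In bulk tissue, fewer cells of a type and less RNA per cell cannot be told apart.

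**Figure D1:**
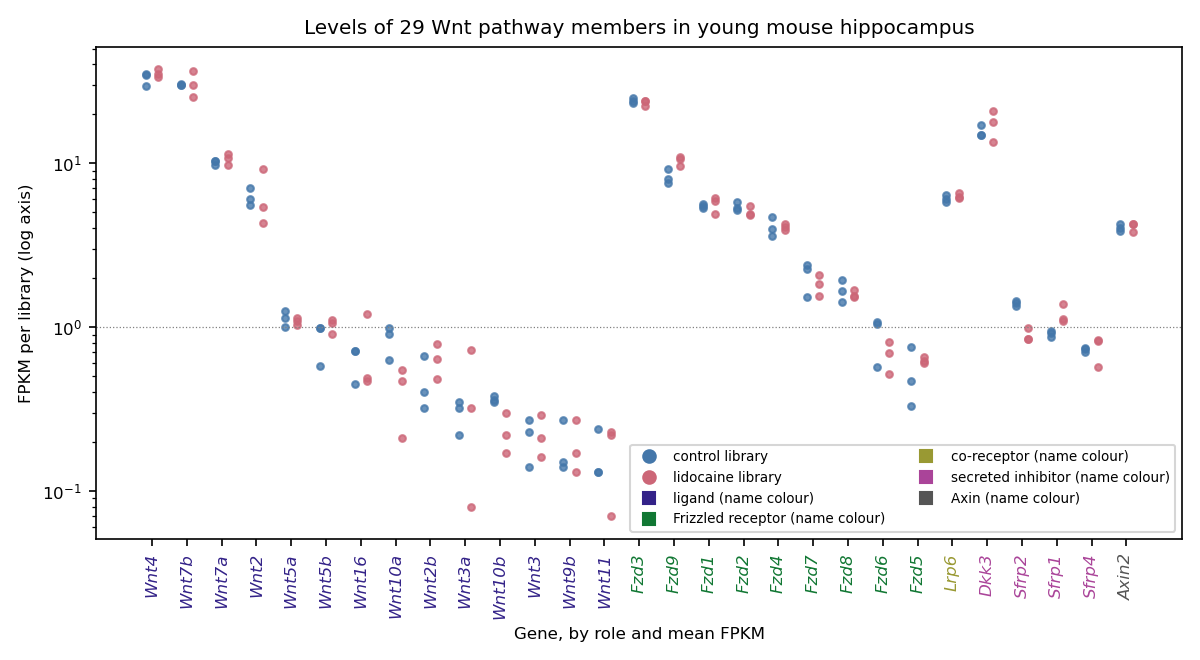
Level of each of the 29 tested members in each of the 6 libraries, in FPKM on a log axis, with genes ordered by role and mean level; blue points are control and red points lidocaine libraries, and the dotted line marks 1 FPKM. Wnt4 and Wnt7b stand highest among the ligands, Fzd3 among the receptors and Dkk3 among the inhibitors, and most members overlap between groups.

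The promoters of the family can be shown for the member with the smallest p in each direction, Sfrp2 (lower with lidocaine) and Fzd9 (higher). Each line gives the 250 bases before the RefSeq start on the gene's strand, 5′ to 3′, in mouse build GRCm38.p6, with CG dinucleotides in capitals. Sfrp2 lies at chr3:83766071-83766320 on the plus strand and Fzd9 at chr5:135251048-135251297 on the minus strand.

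Sfrp2: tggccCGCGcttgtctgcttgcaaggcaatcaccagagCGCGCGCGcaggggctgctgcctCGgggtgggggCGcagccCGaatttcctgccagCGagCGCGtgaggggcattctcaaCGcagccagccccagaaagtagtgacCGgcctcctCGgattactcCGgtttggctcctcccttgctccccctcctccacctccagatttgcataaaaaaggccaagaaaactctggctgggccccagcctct

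Fzd9: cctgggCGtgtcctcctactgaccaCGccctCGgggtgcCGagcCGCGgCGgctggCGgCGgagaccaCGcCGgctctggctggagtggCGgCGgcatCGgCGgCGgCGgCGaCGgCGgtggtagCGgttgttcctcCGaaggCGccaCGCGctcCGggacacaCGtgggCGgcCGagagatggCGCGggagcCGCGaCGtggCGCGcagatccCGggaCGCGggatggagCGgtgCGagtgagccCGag

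The Sfrp2 window held 16 CG dinucleotides at a GC content of 63.6%, and the Fzd9 window 42 at 76.4%. RefSeq windows were matched for 25 members, with 28 windows in all because Wnt5b and Wnt11 have several starts. Members without a window include Wnt7b, Fzd3, Dkk3, Lrp6, Sfrp1 and Wnt10a, so the shares below cover the matched members only. At least 10 CG dinucleotides were found in 22 of the 28 windows (78.6%), against 50.1% of 21262 windows of protein-coding genes, and the median GC content was 68.6% against 55.6%. The TCF/LEF core, searched on both strands as CTTTG followed by AA, AT, TA or TT, was found in 4 of the 28 windows (14.3%) and in 13.2% of the protein-coding ones. Neither printed window held it. These are descriptions of the letters in a short window, and no promoter measurement was made in these libraries.

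Among ligands, a few genes made up nearly all of the summed FPKM. Wnt4, Wnt7b, Wnt7a and Wnt2 together took between 91.5% and 95.2% of the summed ligand FPKM in each library. Summed over all 19 ligands the level was 84.7 ± 4.06 FPKM in controls and 88.5 ± 1.44 with lidocaine (SD, n = 3 each).

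**Figure D2:**
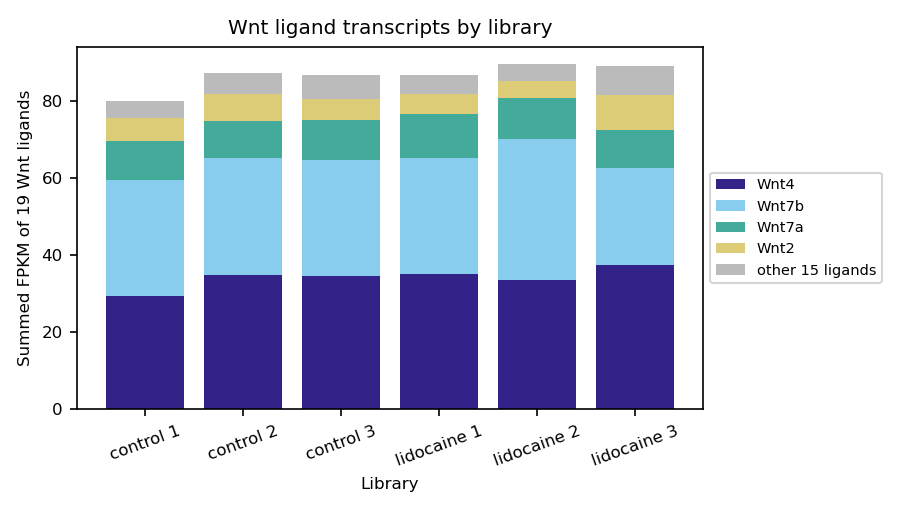
Summed FPKM of the 19 Wnt ligands in each library, stacked by gene from 0. Wnt4 and Wnt7b make up most of each bar, and the bars range from 80.04 FPKM in control 1 to 89.5 in lidocaine 2.

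Wnt4, known above all for kidney and female reproductive tract development, had the highest mean level of all members. It was at 29.3, 34.9 and 34.5 FPKM in controls 1 to 3 and at 35.0, 33.5 and 37.3 in lidocaine 1 to 3. The groups overlapped, with control 1 lowest and lidocaine 3 highest. Its fold change, lidocaine over control, was 1.09 with a 95% interval from 0.948 to 1.25 (edgeR, Benjamini-Hochberg-adjusted p = 0.995).

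Wnt7b, which with Wnt7a directs blood vessel growth into the brain and promotes dendrite growth in rodent hippocampal neurons, had the next highest mean level. Its level was 30, 30.15 and 30.18 FPKM in the controls and 30.08, 36.6 and 25.3 with lidocaine. The controls differed by less than 1 FPKM, while the lidocaine libraries lay on both sides of them. The fold change was 1.02, with an interval from 0.859 to 1.21.

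Wnt7a, a ligand that promotes presynaptic assembly in rodent neurons, was at 10.2, 9.74 and 10.4 FPKM in the controls and 11.4, 10.8 and 9.77 with lidocaine. Its fold change was 1.04, with an interval from 0.923 to 1.18. Wnt2, another β-catenin-activating ligand, was at 6, 7.01 and 5.57 FPKM in the controls and 5.42, 4.34 and 9.17 with lidocaine. Its interval was wide, from 0.639 to 1.59, because lidocaine 2 was the lowest and lidocaine 3 the highest of all libraries. Wnt4 and Wnt7b changed order between libraries, with Wnt7b higher in lidocaine 2 and Wnt4 higher in lidocaine 3. Their levels were not tested against each other. Wnt7a and Wnt2 lay below both in every library.

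Wnt5a, a ligand that mainly signals without β-catenin, averaged 1.13 ± 0.13 FPKM in controls and 1.09 ± 0.055 with lidocaine (SD, n = 3 each). Its fold change was 0.953, with an interval from 0.756 to 1.202. Its paralog Wnt5b averaged 0.85 and 1.02 FPKM. The remaining 13 ligands averaged under 0.7 FPKM each over all 6 libraries.

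Of those low ligands, Wnt10a and Wnt10b, close relatives that activate β-catenin signalling in skin, tooth and bone, were lower in every lidocaine library than in any control. Wnt10a had 38, 66 and 53 counts in control libraries 1 to 3 and 33, 14 and 37 counts in lidocaine libraries 1 to 3. It averaged 3.53 ± 0.802 CPM (counts scaled to library size) in controls and 1.71 ± 0.754 with lidocaine (SD, n = 3 each). On the log2 scale its fold change was -1.04 ± 0.38 (SE), at an unadjusted p of 0.0271 and 0.995 after Benjamini-Hochberg adjustment in edgeR. Wnt10b had 21, 21 and 19 counts in control libraries 1 to 3 and 14, 10 and 18 counts in lidocaine libraries 1 to 3. Its log2 fold change was -0.68 ± 0.34 (edgeR, unadjusted p = 0.0828), and its interval, from -1.47 to 0.11, included 0.

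Wnt3a, the ligand of the embryonic cortical hem that the hippocampus needs to form, spread widely between libraries. It had 14, 25 and 20 counts in control libraries 1 to 3 and 24, 6 and 51 counts in lidocaine libraries 1 to 3, so the lidocaine libraries bracketed the controls. Wnt3, reported from rodent hippocampal astrocytes as a signal for adult neurogenesis, had 17, 11 and 19 counts in control libraries 1 to 3 and 24, 13 and 17 counts in lidocaine libraries 1 to 3. Wnt16 was likewise highest in lidocaine 3, with 29, 20 and 28 counts in the controls against 22, 22 and 54. Wnt2b had 14, 19 and 28 counts in the controls and 32, 23 and 38 with lidocaine, and Wnt9b and Wnt11 had 5 to 34 counts per library. Each of these 6 had overlapping groups, and changes smaller than their spread were not detectable at this depth.

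The other 5 ligands had too few counts to test. Wnt8b was counted 1 to 5 times per library, Wnt6 0 to 9 times, and Wnt1 and Wnt8a 1 time each over all 6 libraries. Wnt9a stood at 0, 4.47 and 4.19 estimated counts in control libraries 1 to 3 and at 0, 0 and 18.7 with lidocaine, and with fractional counts an exact 0 can be a failed estimate. In the mouse RefSeq annotation, 8 of the ligands sit as adjacent pairs on the chromosome: Wnt6 with Wnt10a, Wnt3a with Wnt9a, Wnt9b with Wnt3, and Wnt10b with Wnt1. In 2 of the pairs the partners lay apart in level, Wnt10a averaging 0.627 FPKM over all libraries and Wnt6 0.0533, and Wnt10b 0.297 and Wnt1 0.00167. In the other 2 the averages lay close, at 0.335 FPKM for Wnt3a and 0.283 for Wnt9a, and at 0.188 for Wnt9b and 0.217 for Wnt3. The Wnt9a average rested largely on lidocaine 3, at 1.14 FPKM, with 0 in control 1, lidocaine 1 and lidocaine 2, so closeness to Wnt3a is uncertain.

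All 9 Frizzled receptors were tested, 3 with a positive and 6 with a negative fold change, and their summed level was 52.4 ± 1.51 FPKM in controls and 53.4 ± 1.59 with lidocaine (SD, n = 3 each). Fzd3, which guides axons through planar cell polarity signalling, was the most abundant, at 25.0, 23.8 and 23.1 FPKM in the controls and 24.1, 23.9 and 22.45 with lidocaine. It took between 43.1% and 46.7% of the receptor total. Its fold change was 0.969, and the interval from 0.881 to 1.07 was the narrowest of the 29 members.

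Fzd9, a receptor prominent in the rodent hippocampus, was the second most abundant, and the lidocaine libraries lay above the controls. It had 520, 496 and 417 counts in control libraries 1 to 3 and 629, 683 and 665 counts in lidocaine libraries 1 to 3. Scaled to library size, the highest control was 35.95 CPM in control 1 and the lowest lidocaine value 37.0 CPM in lidocaine 1, so the gap between groups was small. The means were 32.3 ± 3.22 and 40.4 ± 2.97 CPM (SD, n = 3 each). The log2 fold change was 0.32 ± 0.10 (SE), at an unadjusted p of 0.0145 and 0.995 after Benjamini-Hochberg adjustment in edgeR. Its share of the receptor FPKM was 14.6% to 16.9% in the controls and 18.1% to 20.4% with lidocaine.

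The other receptors had overlapping groups. Fzd1 averaged 5.49 ± 0.127 FPKM in controls and 5.64 ± 0.649 with lidocaine, and Fzd2 5.43 ± 0.298 and 5.08 ± 0.345 (SD, n = 3 each). Fzd4, the receptor that keeps the barrier of retinal and brain vessels, averaged 4.07 ± 0.582 and 4.08 ± 0.171 FPKM. The summed endothelial markers lay between 442 and 526 CPM in controls and between 468 and 498 CPM with lidocaine. Fzd7 averaged 2.06 and 1.83 FPKM, and Fzd8 1.67 and 1.58. Fzd6 and Fzd5 were below 1 FPKM on average, and the log2 fold change of Fzd6 was -0.43, its interval reaching from -1.10 to 0.24. In Fzd5, which binds Wnt7a at rodent hippocampal synapses, the lidocaine counts of 38, 38 and 35 lay within the control range of 19 to 39.

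Of the co-receptors, Lrp6 was at 6.40, 5.78 and 6 FPKM in the controls and 6.19, 6.61 and 6.14 with lidocaine. Its fold change was 1.03, with an interval from 0.919 to 1.16. Lrp5 was listed at 26.8 estimated counts in control 1 and at 0 in the other 5 libraries, again with a fractional count, and was not tested. Axin2 limits β-catenin and is itself a direct target of the pathway, which makes its transcript a common readout of β-catenin signalling. It had 391, 414 and 405 counts in control libraries 1 to 3 and 482, 407 and 463 counts in lidocaine libraries 1 to 3. Relative to library size this was 27.4 ± 1.42 and 27.6 ± 2.02 CPM (SD, n = 3 each). The fold change was 1.01, with an interval from 0.865 to 1.17.

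**Figure D3:**
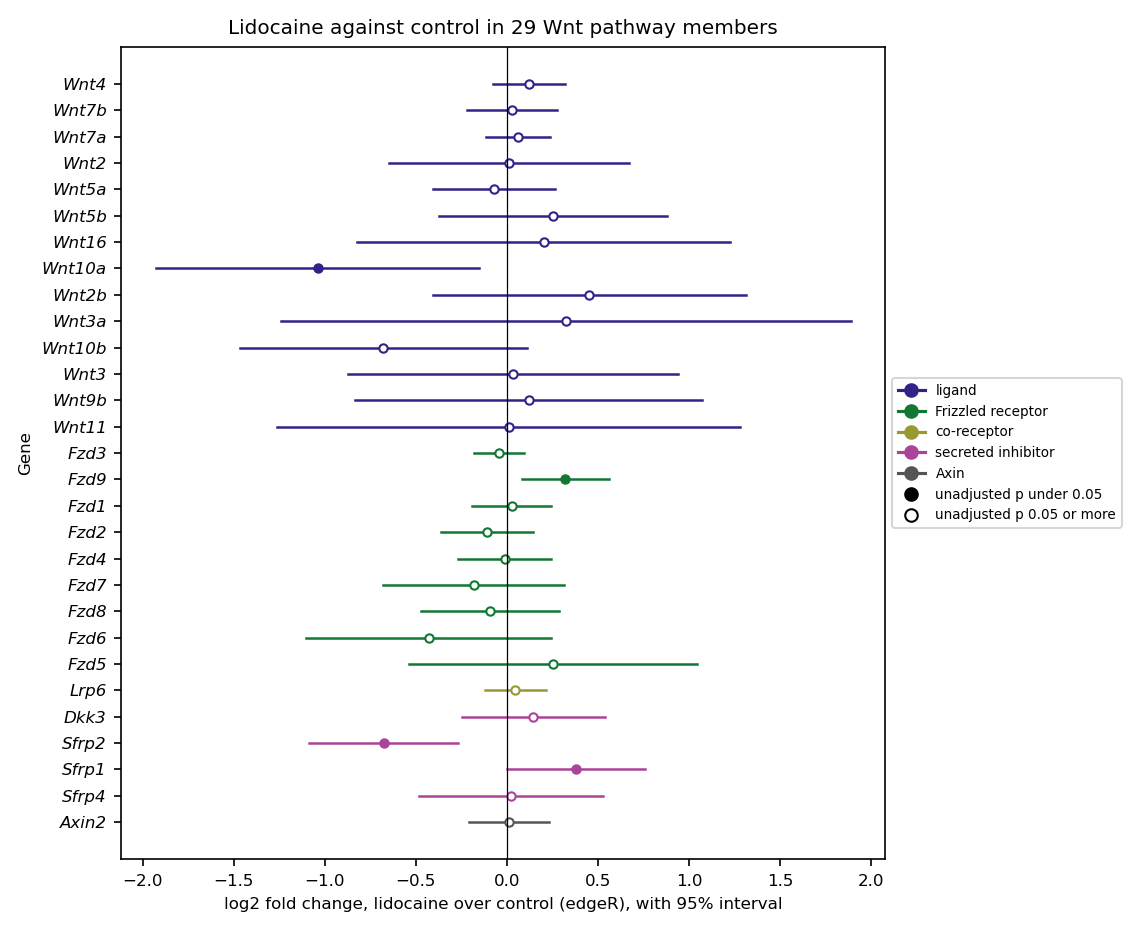
log2 fold change of lidocaine over control for the 29 tested members (edgeR, points) with 95% intervals (lines), coloured by role; filled points have an unadjusted p under 0.05. Abundant members such as Fzd3, Wnt4 and Lrp6 have short intervals around 0, and the filled points are Wnt10a, Fzd9, Sfrp2 and Sfrp1.

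Among the 8 secreted inhibitors found by symbol, Dkk3, a divergent Dickkopf family member, took between 82.5% and 89.0% of the summed FPKM. Frzb, a secreted inhibitor outside these symbols and outside that sum, averaged 8.96 FPKM in controls and 9.45 with lidocaine. The groups of Frzb overlapped. Dkk3 was at 14.8, 14.8 and 17.04 FPKM in the controls and 17.8, 13.4 and 20.9 with lidocaine. Lidocaine 2 was the lowest and lidocaine 3 the highest library, and the fold change of 1.11 had an interval from 0.843 to 1.45. Dkk1, the inhibitor that binds Lrp6 and causes synapse loss in rodent hippocampus, and Dkk4 were counted 0 times in all 6 libraries. A count of 0 allows up to 3 counts, or 0.177 to 0.216 CPM depending on the library, and covers counting error only. Dkk2 was counted 3 to 10 times and Sfrp5 2 times in control 3 and 0 elsewhere.

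Sfrp1 and Sfrp2, secreted proteins that resemble the Wnt-binding domain of Frizzled, lay on opposite sides of their control levels with lidocaine. Sfrp2 had 81, 91 and 75 counts in control libraries 1 to 3 and 65, 53 and 53 counts in lidocaine libraries 1 to 3, or 5.57 ± 0.197 and 3.48 ± 0.296 CPM (SD, n = 3 each). Every lidocaine library was below every control. Its log2 fold change was -0.68 ± 0.18 (SE), at an unadjusted p of 0.00529 and 0.995 after Benjamini-Hochberg adjustment in edgeR. Sfrp1 had 90, 97 and 80 counts in control libraries 1 to 3 and 153, 117 and 115 counts in lidocaine libraries 1 to 3, or 6.02 ± 0.271 and 7.83 ± 1.01 CPM. Every lidocaine library was above every control, with lidocaine 1 highest. Its log2 fold change was 0.38 ± 0.16, at an unadjusted p of 0.0499 and an adjusted p of 0.995 in the same test. In DESeq2 the unadjusted p of Sfrp1 was 0.102, while those of Sfrp2, Fzd9 and Wnt10a stayed under 0.05. Sfrp4 averaged 3.45 ± 0.087 CPM in controls and 3.50 ± 0.636 with lidocaine, with overlapping groups.

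**Figure D4:**
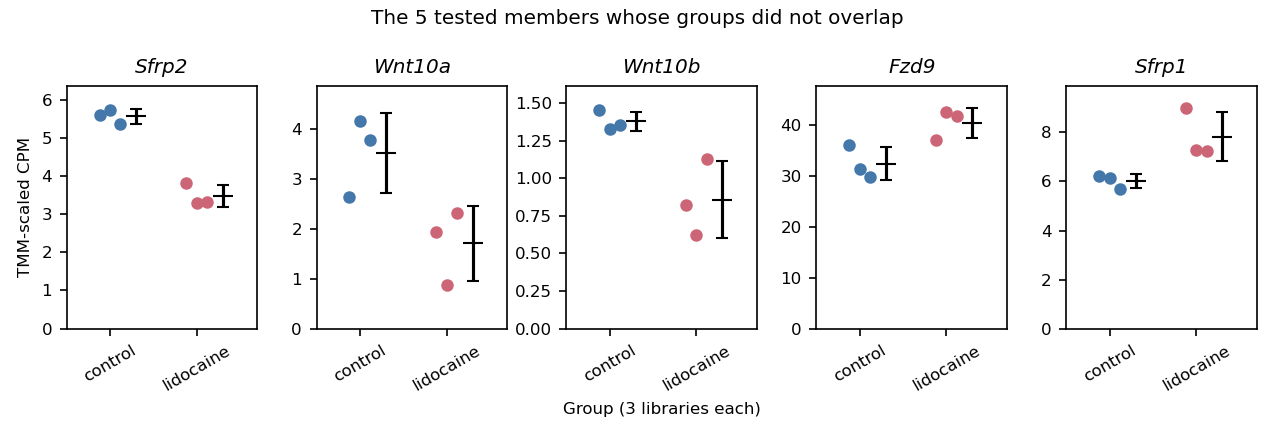
TMM-scaled CPM of Sfrp2, Wnt10a, Wnt10b, Fzd9 and Sfrp1 in each library, from 0, with the mean and SD of the 3 libraries of a group as a bar beside the points. Sfrp2, Wnt10a and Wnt10b are lower and Fzd9 and Sfrp1 higher in all lidocaine libraries, and none passed the adjusted test.

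Some marker lists of other cells also lay apart between the groups. Of 14 meningeal fibroblast markers, 12 matched a row and 10 were tested, 8 with a positive fold change, against 49.9% of all tested genes. The summed level of these markers was 101 to 114 CPM in controls and 119 to 157 CPM with lidocaine, with lidocaine 1 highest. Igf2 alone was at 25.6 to 25.9 CPM in controls and 34.1 to 43.8 CPM with lidocaine (adjusted p = 0.619 in edgeR and 0.0251 in DESeq2), and without it the sums overlapped, at 75.5 to 88.03 and 82.1 to 112.9 CPM. Of 12 mature oligodendrocyte markers, 11 had a negative fold change, against 50.1% of all tested genes, and their summed level was 11838 to 13788 CPM in controls and 8578.5 to 11801 CPM with lidocaine. At an unadjusted p under 0.05 edgeR listed 6 of the 12 as lower, against 2.36% of all tested genes, and after Benjamini-Hochberg adjustment it called 0 and DESeq2 called 1, Mbp. Choroid plexus markers summed to 43.6 to 59.0 CPM in controls and 34.7 to 56.5 CPM with lidocaine. In every library most of this sum was Enpp2, at 34.2 to 43.3 CPM in controls and 27.8 to 46.2 CPM with lidocaine. The sum therefore mainly reads Enpp2. Ttr was at 1.35 to 8.71 CPM across the libraries. The choroid plexus factor Otx2 was at 0.03 FPKM in controls and 0 with lidocaine. Astrocyte markers summed to 6907 to 7706 and 7153 to 7344 CPM. All 7 tested cortex markers had a negative fold change, against 50.1% of all tested genes. The cortex sums overlapped, at 251 to 277 CPM in controls and 220 to 252 CPM with lidocaine. The part of these cells in the values of Sfrp1, Sfrp2, Fzd9, Wnt10a and Wnt10b was not tested.

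Within the lidocaine group, libraries 2 and 3 lay at opposite ends for several members. Dkk3, Wnt2, Axin2 and Wnt3a had their highest value of all 6 libraries in lidocaine 3 and their lowest in lidocaine 2, which is 13.8% of the tested members against 4.09% of all tested genes. Wnt7b and Wnt9b had the reverse order, 6.9% against 3.91%. These libraries were singled out after the values were seen, so the shares do not test for an excess. Lidocaine 2 was the lowest library for 7 tested members, and so was control 2. Axin2 spanned only 25.3 to 29.1 CPM, with control 3 at 28.9 CPM. Wfs1, a marker of CA1 pyramidal cells, was at 677, 677 and 689 CPM in the controls and at 724, 345 and 842 CPM in lidocaine 1 to 3. Without Wfs1 the summed hippocampal markers were at 965, 907 and 945 CPM in the controls and at 909, 919.7 and 1044 CPM in lidocaine 1 to 3, with lidocaine 3 highest and lidocaine 2 within the control range. The markers in this sum did not move together. Bcl11b and Grik4 were also lowest in lidocaine 2, at 180 and 50.1 CPM, and highest in lidocaine 3, at 245 and 92.4 CPM. Fibcd1, the largest of them, was instead highest in lidocaine 2, at 375 CPM. The part of this difference between libraries in the members' values was not tested.

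None of the other Wnt pathway genes examined was called either. Of 80 genes listed outside the members, 78 matched a row and 67 were tested, and edgeR called 0, with 3 higher and 1 lower at an unadjusted p under 0.05, or 5.97% against 4.36% of all tested genes. The groups did not overlap in 4 of the 67, Gpc4, Ror1 and Apc2 (higher with lidocaine) and Apc (lower), which is 5.97% against 9.98% of all tested genes. Of their log2 fold changes 32 were positive and 35 negative, with a median of -0.025. DESeq2 and limma also called 0 of these genes. Of 131 genes that the deposited table annotates to the KEGG Wnt signaling pathway and that are not members, some of them in the lists above, 104 were tested and 0 were called.

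Among co-receptors and receptor regulators, the heparan sulfate proteoglycan Gpc4 averaged 63.6 ± 1.93 CPM in controls and 71.2 ± 1.84 with lidocaine (SD, n = 3 each), and the Wnt5a receptor Ror1 1.83 ± 0.146 and 2.84 ± 0.511 CPM. Both had every lidocaine library above every control, at log2 fold changes of 0.16 ± 0.06 and 0.63 ± 0.25 (SE) and Benjamini-Hochberg-adjusted p-values of 0.995 in edgeR. Apc2, a neuronal relative of the destruction complex scaffold Apc, was at 2989, 2874 and 3251 estimated counts in the controls and 8125, 4760 and 3812 with lidocaine. Its counts are fractional and lidocaine 1 stood far above the rest, and its log2 fold change was 0.71 ± 0.28. Apc itself had -0.13 ± 0.07, also with fractional counts.

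For ligand release, the acyltransferase Porcn that lipid-modifies Wnts had a log2 fold change of -0.06 ± 0.10 and the Wnt-inactivating enzyme Notum 0.48 ± 0.34. Among other secreted modulators, Igfbp4 had -0.20 ± 0.10 and the R-spondin Rspo3 -0.26 ± 0.23. The planar polarity genes Daam1 and Celsr2 had -0.10 ± 0.09 and 0.05 ± 0.07. Counts of Porcn, Rspo3 and Daam1 were fractional. In the nucleus the co-repressor Tle4 had -0.37 ± 0.15, at an unadjusted p of 0.0394 in edgeR, with overlapping groups and fractional counts. The β-catenin partner Bcl9l had -1.11 ± 0.51, also with overlapping groups and fractional counts. It averaged 0.38 FPKM in controls and 0.177 with lidocaine. Nkd1 and Nkd2, feedback inhibitors that bind Dishevelled, had -0.27 ± 0.15 and -0.36 ± 0.22. The 9 tested feedback and target genes had a median of -0.09.

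**Figure D5:**
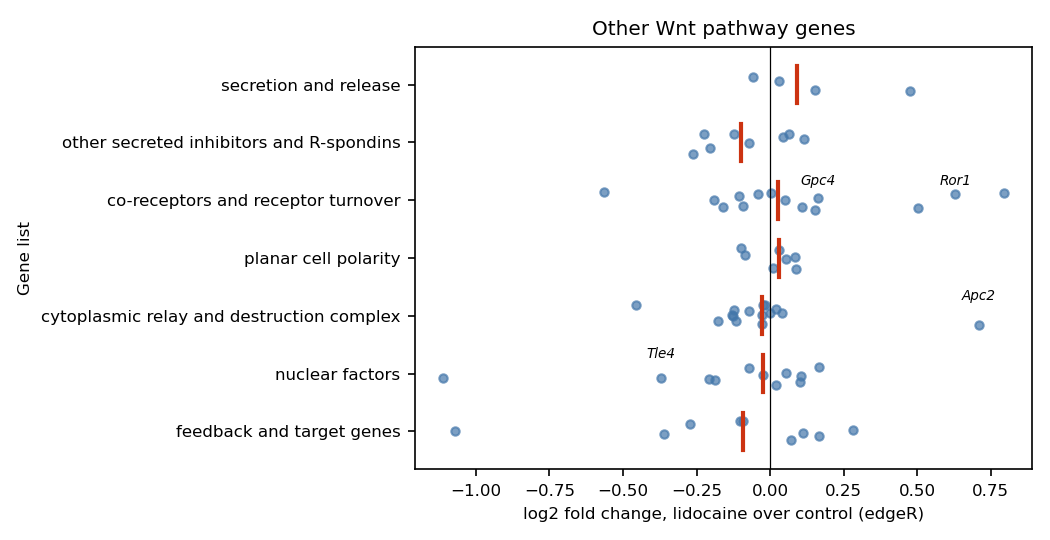
log2 fold change of lidocaine over control (edgeR) for the tested Wnt pathway genes outside the members, by list, with each list's median as a red line; names mark genes with an unadjusted p under 0.05. The list medians lie between -0.10 and 0.09, and 0 genes passed the adjusted test.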

How the data were processed

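Hippocampal mRNA of young mice was measured in 3 control and 3 lidocaine libraries, grouped by sample title, and table columns were matched by group initial and replicate number, since the column names give no age. Per the labels' protocols, an RNeasy kit was used for RNA and a SMARTer kit for the libraries. The submitters' processing notes name the build mm10; no aligner, counter or annotation is named in the sources used here. Per the file headers, the deposited table holds estimated counts per gene (not normalised, fractional within a tolerance of 1e-06 for 30.4% of genes) and FPKM values. The authors scaled the FPKM values to gene length and depth; these served for levels between genes and for alternatives.

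Estimated counts were rounded, filtered with filterByExpr (13408 genes left), scaled by TMM factors (0.991 to 1.009) and compared with edgeR 4.0.16 in R 4.3.3 (quasi-likelihood F-test, robust, two-sided), with Benjamini-Hochberg adjustment over all tested genes and calls at an adjusted p under 0.05. CPM are TMM-scaled. Standard errors and 95% intervals were derived from the F statistic. Alternatives were DESeq2 1.42.0, limma-voom and limma 3.58.1 on log2(FPKM + 1) and log2(FPKM + 0.1), other scalings, no filter, whole-count genes, an adjusted p under 0.1, the replicate number as a block and each library left out. The edgeR script was tested on simulated data. Every pair of libraries differed by more than sampling noise, with a chi-square per degree of freedom of 9.89 to 17.2.

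The members and lists were chosen with earlier results of these data known. Members that passed the filter and averaged at least 1 FPKM, or had an unadjusted p under 0.05, were named with values, as were the 2 genes with the smallest p in each pathway list; further members, Wfs1 and Wnt10b were added after their values were seen. Of 129 cell marker entries, 120 matched a row. Promoters came from RefSeq (GRCm38.p6). For 26 of 28 member windows, a stretch just after the start lay within a GENCODE transcript of the same gene on the same strand. This checked the orientation, not the bases before the start.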

Additional observations from a re-analysis of the deposited data

How the results depend on the processing

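Under each alternative run, 0 members and 0 other pathway genes were called. Over all genes edgeR called 2, and the count was 0 with the replicate block and with whole-count genes only, 23 with DESeq2, 5 with limma on log2(FPKM + 0.1), 4 at an adjusted p under 0.1, and 0 to 6 when each library was left out. Of the 18 members in the rule for named genes, 10 kept the sign of their fold change throughout, among them Sfrp2 (-0.74 to -0.64 on the log2 scale when each library was left out), Fzd9 (0.27 to 0.40), Sfrp1 (0.27 to 0.44) and Wnt10a (-1.32 to -0.72). With limma on log2(FPKM + 1), a scale that understates changes of low genes, Sfrp2 was at -0.35, Sfrp1 at 0.20 and Wnt10a at -0.39. The smallest adjusted p of any named member under any alternative was 0.787. Leaving out single libraries turned the sign of Wnt7b (-0.086 to 0.14), Dkk3 (-0.0175 to 0.31), Wnt2 (-0.37 to 0.23), Fzd1 (-0.0318 to 0.11), Fzd4 (-0.10 to 0.11), Axin2 (-0.0266 to 0.0719), Fzd8 (-0.20 to 0.0225) and Wnt5a (-0.15 to 0.0138). Wnt2 was also negative with the replicate block (-0.0542), limma-voom (-0.0667), log2(FPKM + 1) (-0.0265) and log2(FPKM + 0.1) (-0.0381), and Fzd4 was positive with log2(FPKM + 1) (0.0075) and log2(FPKM + 0.1) (0.0106). The cause was not tested. Same-numbered libraries had correlations of their deviations from group means of 0.045, 0.027 and -0.001. Control 1 correlated best with lidocaine 1 and control 2 with lidocaine 2, while control 3 correlated best with lidocaine 2, at 0.017. The main comparison did not treat same-numbered libraries as pairs.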

Other observations

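Sfrp1 and Sfrp2 were picked after their values were seen, as the inhibitors with the smallest p in each direction, so the separation of their ratio follows from that choice. The ratio of Sfrp1 to Sfrp2 counts, taken within a library and so free of library scaling, was 1.11, 1.07 and 1.07 in the control libraries. With lidocaine it was 2.35, 2.21 and 2.17.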
